A study of Mus musculus with 425 samples.

Results

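Small RNA of sperm from the cauda epididymis was compared between 4 control and 4 conditional knockout libraries of the Defb41 mouse line, restricted to the first of the 2 library series made for this line. These are 8 of the 425 samples of the study. They were picked out by their labels, with earlier results of these data already known. The control libraries are labelled Dgcr8+/fl; Defb41-iCre, that is, 1 floxed and 1 wild-type allele of Dgcr8 with the recombinase iCre driven from Defb41. The knockout libraries, called cKO here, are labelled Dgcr8fl/fl; Defb-iCre, with both alleles floxed, and the 2 spellings of the Cre are taken here to mean 1 driver. Every library of both groups therefore comes from mice that carry Cre and at least 1 floxed allele. Defb41 is a defensin gene of the epididymal epithelium, so the deletion is aimed at the epithelium that sperm pass and not at the germ cells themselves. The labels give no age, and they do not say whether a library holds 1 animal or a pool, or whether replicates are different animals. The p-values below therefore describe how these libraries scatter, and part of that scatter can be technical. Small RNA libraries do not count Dgcr8 mRNA, and the deletion was not checked in these files.

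Dgcr8 is the RNA-binding partner of Drosha. Together they cut primary transcripts into miRNA hairpins in the nucleus, a step that most miRNAs need and that piRNAs and tRNA fragments do not. Sperm leave the testis with piRNAs and miRNAs made during spermatogenesis, and on their way through the epididymis they gain tRNA fragments and miRNAs, in part through vesicles shed by the epithelium. The family of miR-34 and miR-449 and a cluster of miRNA genes on the X chromosome are known as miRNAs of meiotic and later male germ cells. Mir10a and Mir10b lie inside Hox gene clusters and are abundant in the epididymis.

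The mature sequences below are those of the miRNAs on which the results turn, from RefSeq on GRCm38.p6, in which 976 of the 1123 miRNA symbols of the count table were found. They are written 5′ to 3′, and capitals mark the seed, bases 2 to 8, which pairs with targets. The first set is shown because its members carry 1 common seed, GGCAGUG, although they lie at separate loci and did not all behave alike.
miR-34b-5p: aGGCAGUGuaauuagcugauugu
miR-449a-5p: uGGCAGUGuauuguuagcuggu
miR-449c-5p: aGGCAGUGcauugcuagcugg
miR-34a-5p: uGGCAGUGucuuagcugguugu
The second set comes from the X-linked cluster on the minus strand, from miR-743b-3p at chrX:66777266-66777287 to miR-465a-5p at chrX:66839099-66839121. It is shown because the 3p arms of miR-465a, miR-465b and miR-465c are identical, so reads of that arm cannot be told apart between the 5 Mir465 genes named below.
miR-465a-3p: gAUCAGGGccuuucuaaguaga
miR-465b-3p: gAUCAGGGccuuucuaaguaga
miR-465c-3p: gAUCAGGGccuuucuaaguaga
miR-465b-5p: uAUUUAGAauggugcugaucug
miR-465c-5p: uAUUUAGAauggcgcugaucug
miR-881-3p: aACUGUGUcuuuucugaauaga
miR-743b-3p: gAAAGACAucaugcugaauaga
miR-878-3p: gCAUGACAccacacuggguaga
The third set holds 4 of the 5 miRNAs that were higher in cKO sperm, with miR-184 as the other abundant one that was lower and miR-182 as the neighbour of miR-183 on chromosome 6. The 5p arms of miR-10a and miR-10b share their seed and differ by 1 base, U12A, counted from the 5′ end of miR-10a with its base first.
miR-10a-5p: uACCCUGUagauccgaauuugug
miR-10b-5p: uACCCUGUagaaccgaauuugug
miR-183-5p: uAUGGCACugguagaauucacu
miR-182-5p: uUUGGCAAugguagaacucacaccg
miR-204-5p: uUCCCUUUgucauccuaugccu
miR-184-3p: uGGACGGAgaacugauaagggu
The tRNA genes that follow stand for 2 abundant kinds of these libraries, since tRNA fragments were the largest class. Each is the commonest form among the RefSeq genes of its kind on GRCm38.p6, with the anticodon in capitals. The form shown is found in 8 of 14 Gly-GCC genes and 5 of 11 Val-CAC genes.
tRNA-Gly-GCC, chr8:110631246-110631316, minus strand: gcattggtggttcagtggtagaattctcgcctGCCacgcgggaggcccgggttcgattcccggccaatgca
tRNA-Val-CAC, chr3:96332740-96332812, plus strand: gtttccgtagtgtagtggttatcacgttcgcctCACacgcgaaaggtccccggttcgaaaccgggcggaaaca

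The 8 libraries held between 7292048 and 10552363 counted reads of RNA of 18 to 40 nt, and levels are given as RPM, reads scaled to a total of 1000000 per library. The count table lists 2343 features, 1123 miRNA genes, 467 piRNA entries, 435 tRNA genes, 313 repeat families and 5 rRNAs. Of these, 1718 had at least 10 reads in at least 4 libraries and were tested with edgeR's quasi-likelihood test. A feature is said to have risen or fallen where its p-value, adjusted by Benjamini-Hochberg over all 1718, was under 0.05. A miRNA count belongs to a gene and not to 1 arm. Because every level is a share of the same total, a large rise in 1 class lowers the others, and fewer cells of a type and less RNA per cell cannot be told apart. cKO replicate 4 stood apart from the other cKO libraries, and control replicate 1 was the highest control for most features. Among the 242 features that fell, cKO replicate 4 was the highest cKO library for 223 and control replicate 1 the highest control for 231, against 711 and 1097 of all 1718.

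The largest class was tRNA, with 58.8, 69.7, 86.6 and 75.5% of counted reads in the 4 controls and 48.5, 60.4, 63.8 and 68.9% in the 4 cKO libraries. miRNAs took 14.2, 20.5, 8.37 and 15.2% in the controls and 35.3, 28.2, 29.5 and 20.7% in cKO. Every cKO library was above every control library, with means of 14.6 ± 4.96% and 28.4 ± 6.03% (SD, n = 4 per group). piRNAs took 6.80, 3.56, 1.60 and 2.46% in the controls and 0.678, 0.553, 0.352 and 1.16% in cKO, so here every cKO library was below every control library. For both classes the 2-sided exact permutation test gave p = 0.0286, the smallest value that 4 against 4 libraries allow, and 0.0714 after Benjamini-Hochberg adjustment over the 5 classes. The tRNA share overlapped between the groups and its mean was 72.7 ± 11.6% in controls and 60.4 ± 8.68% in cKO (exact p = 0.171, adjusted 0.286). The rRNA share, 8.77 ± 7.33% and 10.04 ± 3.77%, and the repeat share, 0.385 ± 0.177% and 0.448 ± 0.0654%, also overlapped.

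**Figure D1:**
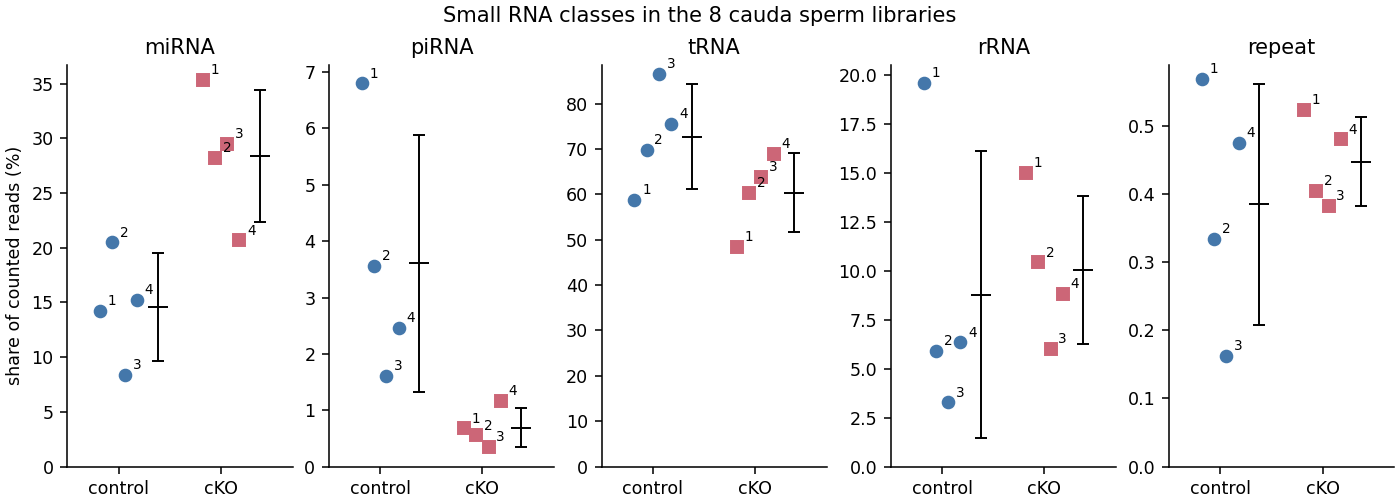
Share of counted reads (%) taken by each small RNA class in each control (circles) and cKO (squares) cauda sperm library, with replicate numbers, and the mean with its SD beside each group. The miRNA shares of the groups do not overlap, from 8.37 to 20.5% against 20.7 to 35.3%, and neither do the piRNA shares.

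Feature by feature, 242 fell and 6 rose, which is 14.1% and 0.349% of the 1718 tested. The falls were spread unevenly over the classes. piRNA entries made up 192 of them, of 450 tested, tRNA genes 24 of 387, miRNAs 23 of 635 and repeat families 3 of 241, while none of the 5 rRNAs passed. The 6 that rose were 5 miRNAs and 1 tRNA gene. For miRNAs alone the 5 higher and 23 lower became 44 and 23 with DESeq2 and 0 and 66 with each class scaled to its own total. The median log2 change was −0.14 over all features, 0.22 over miRNAs, −0.75 over piRNA entries and −0.70 over tRNA genes. The balance depends on the scaling. DESeq2, whose size factors set the median of all features at 0.12, gave 65 higher and 260 lower, and scaling each class to its own total gave 238 higher and 194 lower, all 238 of the higher being piRNA entries. TMM factors left it at 6 and 243.

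Of the miRNAs that fell, those of male germ cells led. Mir34c, a miRNA abundant in spermatids and in sperm, stood at 1859, 836, 451 and 1791 RPM in the controls and at 15.5, 26.3, 26.03 and 410 RPM in cKO. The lowest control was above the highest cKO library, cKO replicate 4, which stood far above the other cKO libraries. The log2 change was −3.37 ± 0.66 (SE, adjusted p = 1.1e-05), and −5.77 without cKO replicate 4. The edgeR adjusted p was 0.041 with TMM factors and 0.037 with each class scaled to its own total. Mir449a, which shares the seed printed above, was counted at 200, 105, 65.9 and 196 RPM in controls and at 3.65, 2.92, 2.41 and 37.9 RPM in cKO, again without overlap (log2 change −3.59 ± 0.78, adjusted p = 6.7e-05). Mir34b, the neighbour of Mir34c on chromosome 9, was at 230, 76.4, 46.5 and 138 RPM in controls and at 3.41, 4.75, 1.81 and 51.9 RPM in cKO. Its groups overlapped, because cKO replicate 4 reached above the lowest control (log2 change −2.98 ± 0.76, adjusted p = 8.6e-04). With TMM factors and with class scaling its adjusted p was close to the threshold, at 0.0488 and 0.0486. These 3 fell of the 6 measured members of the family, beside 3.62% of all miRNAs tested. The other 3 were rare and did not pass the test, with log2 changes of 0.68 for Mir34a, 0.58 for Mir449b and 0.25 for Mir449c. Mir34a was at 2.82 to 16.5 RPM in controls and 7.68 to 20.8 RPM in cKO.

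The X-linked cluster followed the same pattern. Of its 22 listed genes present in the table, 18 were tested, all 18 had a log2 change below 0, and 14 fell. Among all 635 miRNAs tested, 3.62% fell. The median over the 18 was −2.60, beside 0.22 over all miRNAs tested. Mir881 was at 587, 135, 69.5 and 327 RPM in controls and at 14.5, 15.1, 14.9 and 85.9 RPM in cKO (log2 change −3.10 ± 0.73, adjusted p = 3.0e-04). cKO replicate 4 alone lay inside the control range. The 5 Mir465 genes, whose 3p arms cannot be told apart, gave nearly the same picture, with log2 changes from −3.04 for Mir465c-1 to −2.76 for Mir465b-1. Mir465c-1 was at 290, 56.0, 23.4 and 72.3 RPM in controls and at 6.70, 4.63, 3.98 and 38.1 RPM in cKO. Control replicate 1 was about 4 times the next control, and 4 of the 5 genes, all but Mir465 itself, missed the threshold without it (Mir465c-1 log2 change −1.92, adjusted p = 0.059). Mir465b-1 also missed the threshold with TMM factors (adjusted p = 0.056) and without cKO replicate 2 (0.051). Mir743b and Mir878 fell too, with log2 changes of −2.94 ± 0.75 and −2.64 ± 0.69. Mir883a, at 5.14 to 33.5 RPM in controls and 0.844 to 3.89 RPM in cKO, was the 1 tested gene of the cluster whose groups did not overlap. The exceptions included Mir470 and Mir871, 2 of the more abundant genes of the cluster, the first at 803, 240, 97.2 and 293 RPM in controls and 118, 93.8, 94.0 and 104 RPM in cKO. Neither passed (log2 change −1.80, adjusted p = 0.054, and −1.43, adjusted p = 0.20). Over the cluster the summed level was 3389, 873, 422 and 1369 RPM in controls and 312, 215, 243 and 495 RPM in cKO, and the groups overlapped through cKO replicate 4 and control replicate 3.

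Outside these families, Mir184, known from the testis, was at 865, 313, 153 and 168 RPM in controls and at 11.4, 13.2, 9.52 and 109 RPM in cKO. All controls were above all cKO libraries (log2 change −3.38 ± 0.73, adjusted p = 6.4e-05). Mir375 and Mir191, from the same list of spermatogenic miRNAs, did not pass, at 316 ± 247 against 126 ± 99.5 RPM and at 2606 ± 1242 against 2478 ± 471 RPM (SD, n = 4). Mir204, also on that list, was higher in cKO (log2 change 2.28) and had a mean of 259 RPM in control testis sperm. The median log2 change over the list's 9 tested members was −0.07. The miR-17-92 cluster and its paralogs, known for their part in dividing cells, had 0 of 12 tested genes past the threshold, with a median log2 change of −0.87. Of all miRNAs tested 3.62% fell and 0.787% rose, so 0 of 12 says little about these genes. Over all features edgeR gave 347 at an unadjusted p under 0.05, 57 of them miRNAs. The 5 remaining miRNAs that fell were rare, and 2 of them rested on 1 library. Mir5122 had 53.7 RPM in control replicate 3 and no more than 3.15 RPM in the other controls, and Mir344d-3 had 70.4 RPM in control replicate 1. Without those libraries the log2 change was 0.77 and −0.93. Mir7234 (log2 change −3.35, adjusted p = 1.4e-04) and Mir468 (−2.60, 0.0053) did not overlap between groups. Both were called in all 8 fits that left out 1 library. Mir7217 (−2.59, 0.0045) did not overlap either but was not called without control replicate 1.

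**Figure D2:**
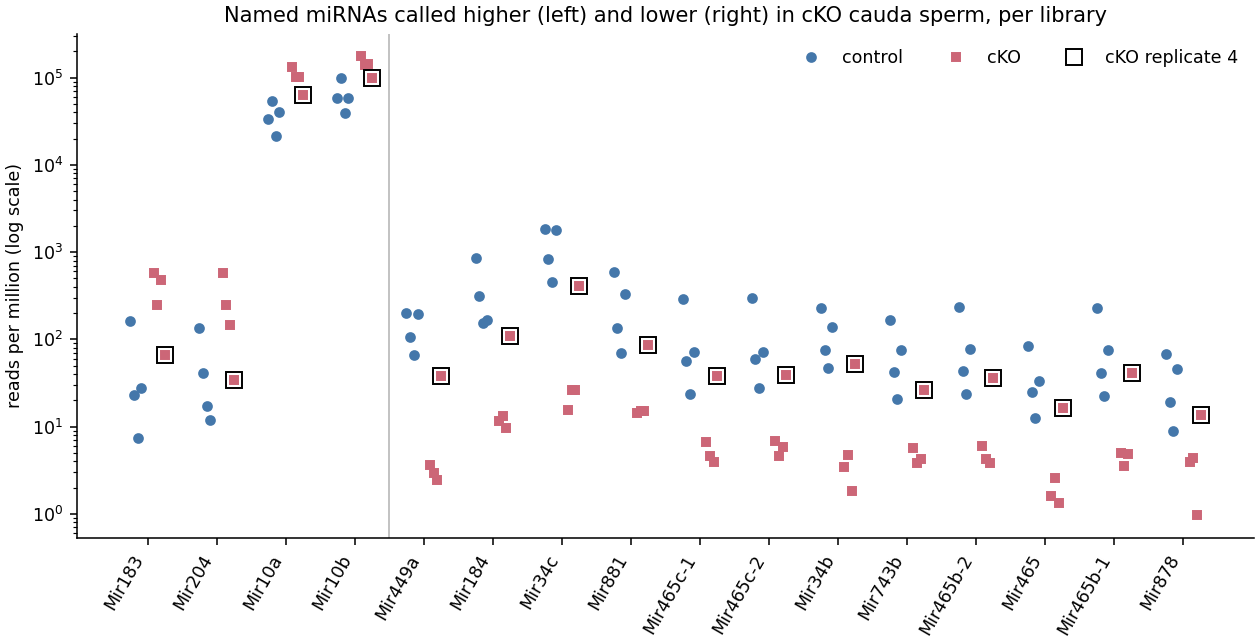
RPM (log scale) of the named miRNAs that rose (left of the line) or fell (right of the line) in each control (circles) and cKO (squares) library, with cKO replicate 4 boxed. In the miRNAs that fell, cKO replicate 4 lies above the other 3 cKO libraries. It is below all controls for Mir34c, Mir449a and Mir184 and inside the control range for the other 9.

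The higher miRNA share of cKO sperm lay in Mir10a and Mir10b. Mir10a was at 33784, 54435, 21199 and 40073 RPM in the controls and at 133240, 100940, 100860 and 62914 RPM in cKO, with no overlap (log2 change 1.41 ± 0.35, adjusted p = 7.4e-04). Mir10b was at 58619, 98167, 38741 and 58993 RPM in controls and at 174500, 137440, 142650 and 97943 RPM in cKO. cKO replicate 4 lay just under control replicate 2, and the other cKO libraries were above all controls (log2 change 1.12 ± 0.34, adjusted p = 0.0074). The rise of both genes missed the threshold with TMM factors, at adjusted p = 0.13 and 0.25, and with the spread taken from 16 libraries of both series, at 0.11 and 0.30. That of Mir10b also missed it without control replicate 3 (adjusted p = 0.064) and without cKO replicate 3 (0.052). With each class scaled to its own total, of which these 2 genes are most, the log2 changes were 0.44 and 0.15 (adjusted p = 0.054 and 0.51).

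Together Mir10a and Mir10b made up 64.9, 74.5, 71.6 and 65.1% of miRNA reads in controls and 87.1, 84.5, 82.6 and 77.8% in cKO. All other miRNAs together took 4.47 ± 1.40% of counted reads in controls and 4.66 ± 0.319% in cKO, a difference of 0.191 percentage points (exact permutation p = 0.971). The cKO libraries lay between 4.38 and 5.12% in this remainder, and control replicate 3 was alone at 2.38%. Mir10a was also a larger part of the pair, 37.0 ± 2.35% in controls and 41.5 ± 1.79% in cKO (exact permutation p = 0.0571). That comparison and the split of the miRNA share were added after the values were seen.

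**Figure D3:**
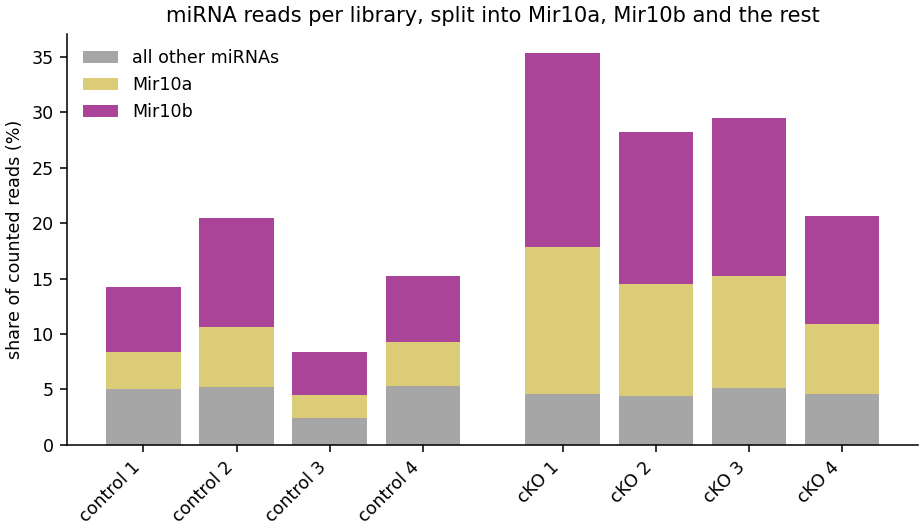
miRNA reads as a share of counted reads (%) in each library, stacked as all other miRNAs, Mir10a and Mir10b. The grey part is 2.38 to 5.30% in controls and 4.38 to 5.12% in cKO, while the Mir10a and Mir10b parts are taller in cKO.

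Besides these, 3 miRNAs rose. Mir183, which lies with Mir182 and Mir96 in 1 cluster, was at 163, 22.7, 7.34 and 27.96 RPM in controls and at 572, 250, 482 and 65.7 RPM in cKO (log2 change 2.63 ± 0.71, adjusted p = 0.0020). Control replicate 1 and cKO replicate 4 overlapped, and without control replicate 3 the adjusted p was 0.064. Its cluster mate Mir182 was much more abundant, at 2017 ± 1121 RPM in controls and 3586 ± 869 RPM in cKO, and did not pass (log2 change 0.83, adjusted p = 0.46). Mir204, known from epithelia of the eye, is also on the list of spermatogenic miRNAs. It was at 136, 41.4, 17.01 and 11.8 RPM in controls and at 574, 250, 145 and 33.9 RPM in cKO. It rose by a log2 change of 2.28 ± 0.71 (adjusted p = 0.011), and did not pass without cKO replicate 1 (1.47, adjusted p = 0.38), without control replicate 3 (1.99, 0.15) or with TMM factors (2.52, 0.055). With each class scaled to its own total neither Mir183 nor Mir204 passed (log2 change 1.55, adjusted p = 0.24, and 1.14, adjusted p = 0.39). Mir2137, at 1.14 to 12.5 RPM in controls and 5.30 to 34.2 RPM in cKO, was called in 3 of the 8 fits that left out 1 library.

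No member of the lists of epithelial and widely expressed somatic miRNAs passed the test in either direction, apart from Mir10a and Mir10b. Of all 635 miRNAs tested, 0.787% rose and 3.62% fell, so 0 calls in lists this short say little about these families. This count holds for edgeR with library totals, while DESeq2 called 44 miRNAs of all kinds higher in place of 5. The miR-200 family, which marks epithelia, had 0 of 5 members past the threshold and a median log2 change of 1.03. Its main member Mir141 was at 1358, 3573, 1553 and 3381 RPM in controls and at 4750, 2397, 3543 and 4108 RPM in cKO, and the ranges overlapped. Mir429 and Mir200b did not overlap, the first at 51.3 to 124 RPM and 157 to 309 RPM, but neither passed (adjusted p = 0.34 and 0.43). The let-7 family, widely expressed in differentiated cells, had 0 of 14 past the threshold and a median of 0.34, the miR-30 family 0 of 7 and −0.25, and the miR-26, miR-29 and miR-148 families 0 of 10 and 0.25. Apart from Mir10a and Mir10b, none of the 6 tested members of the miR-10, miR-99, miR-100 and miR-125 list passed. Mir21a, a miRNA raised in many injured or dividing cells, was at 817 ± 193 RPM in controls and 1818 ± 556 RPM in cKO without overlap, and did not pass (adjusted p = 0.22). Of 5 tested miRNAs that are made without Dgcr8, such as Mir320 and Mir484, none passed, and the median log2 change was 0.60. With each class scaled to its own total, the medians of the let-7 family, of the miR-30 family and of the miR-26, miR-29 and miR-148 families were −0.54, −1.1 and −0.69, and DESeq2 gave 0.18 for miR-30, so the sign of these medians depends on the scaling.

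Sperm preparations can carry other cells, and markers of these were measured beside the results. Muscle and stromal miRNAs summed to 5112 to 14078 RPM in controls and 2036 to 10286 RPM in cKO, with 0 of 10 past the threshold and nearly all of it from Mir143 (8191 ± 4069 and 6747 ± 3647 RPM). Blood and immune miRNAs summed to 495 to 1367 RPM and 336 to 1248 RPM, 0 of 10 past the threshold, led by the red cell miRNA Mir486. Endothelial Mir126a and Mir126b summed to 26.6 to 52.0 RPM and 16.6 to 79.9 RPM. The medians of the muscle and blood lists, −0.02 and −0.17, were 0.25 and 0.10 with DESeq2. None of these 3 sums was at 0 in any library. Of all miRNAs tested 3.62% fell and 0.787% rose, so 0 of 10 says little about either list. In 4 control libraries of cauda epididymis tissue of the same line, counted in a separate table, the muscle and stromal list summed to 204070 ± 109460 RPM and the miR-200 family to 6786 ± 3461 RPM, the latter beside 2738 RPM in control sperm. Mir10a and Mir10b were at 99353 ± 5924 and 345170 ± 191210 RPM in that tissue, Mir183 at 488 ± 205 RPM and Mir204 at 119 ± 40.6 RPM. The part that other cells had in the results above was not tested.

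piRNAs gave the largest number of falls, and these followed the kind of locus. The entries are transcripts of piRNA-producing loci, named in the table either for a gene, with the prefix pi-, or for a chromosome band and number. Transcripts of 1 locus overlap and share reads, so the 450 entries tested stand for 212 names and are not independent. Of 213 entries named for a band, 179 fell, 84.0%, from 86 of 100 names, with a median log2 change of −3.40 and a middle range from −3.87 to −2.44. Of 237 entries named for a gene, 13 fell, 5.49%, from 7 of 112 names, and the median was 0.03. All 46 band-named entries with a mean of at least 100 RPM fell, with a median of −3.96, and 1 of the 8 gene-named ones did.

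The reads behind these counts show the same split. Band-named entries summed to 58934, 31404, 13924 and 18798 RPM in the controls and to 2011, 1646, 1012 and 5604 RPM in cKO, and every control was above every cKO library. Gene-named entries summed to 9049, 4198, 2085 and 5757 RPM in controls and to 4764, 3880, 2508 and 6031 RPM in cKO, and here the ranges overlapped. Within the piRNA total the gene-named entries were thus the larger part in cKO, and all 238 entries that were higher with each class scaled to its own total were piRNAs, beside 110 lower.

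Of the named entries, 18-qE1-36451.1 was at 2850, 1492, 643 and 922 RPM in controls and at 35.8, 31.2, 20.1 and 207 RPM in cKO (log2 change −4.33 ± 0.68, adjusted p = 3.6e-07), without overlap. 9-qC-31469.1 was at 2716, 1429, 624 and 798 RPM and at 35.4, 39.1, 24.9 and 207 RPM (−4.18 ± 0.68, adjusted p = 3.6e-07). In both, cKO replicate 4 was more than 5 times the next cKO library and still below the lowest control. 8-qC5-8200.1, 15-qD3-14639.1, 12-qE-23911.1 and 7-qD2-24830.1 fell with log2 changes of −4.24, −4.20, −4.18 and −4.16, and none of the 6 overlapped between groups. The same libraries led nearly all of the falls. Control replicate 1 was the highest control in all 192 entries that fell, and cKO replicate 4 the highest cKO library in 188. Of the gene-named entries, pi-Gm5878.1 fell the most, from 228 to 18.4 RPM (log2 change −3.63). The most abundant, pi-Ankrd11.1, was at 380 and 136 RPM and did not pass (adjusted p = 0.15), and pi-Wdfy3.2 was at 135 and 133 RPM. In all, 160 of the 192 falls were called in each of the 8 fits that left out 1 library, against 11 of 23 among miRNAs and 0 of 24 among tRNA genes. Control and cKO libraries did not overlap for 185 piRNA entries, 41.1% of those tested, beside 12.4% of all features.

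**Figure D4:**
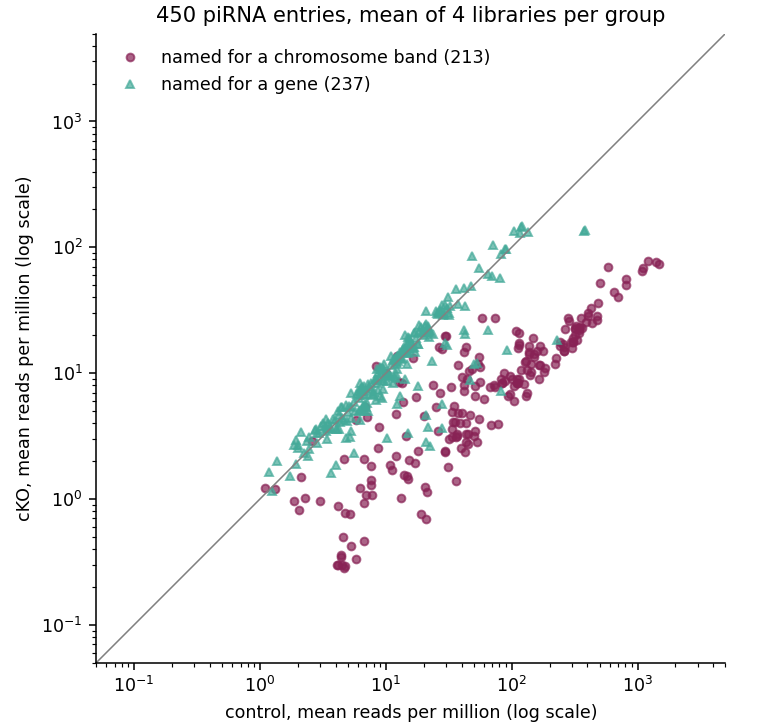
Mean RPM in cKO against control (both log scales, 4 libraries each) for 450 piRNA entries, named for a chromosome band (circles, 213) or for a gene (triangles, 237), with the line of equality. Gene-named entries lie along the line, with a median log2 change of 0.03, and band-named ones lie below it, at −3.40.

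tRNA fragments, the bulk of the libraries, came mostly from 3 amino acids. Glycine tRNAs took 31.8, 51.9, 57.8 and 41.5% of counted reads in controls and 25.5, 40.1, 44.1 and 42.2% in cKO. Valine tRNAs took 10.9 ± 5.0005% and 12.4 ± 2.11%, and glutamate tRNAs 11.5 ± 5.81% and 7.14 ± 2.76%. In each of the 3 the groups overlapped, and none of their 70 tested genes changed. The most abundant gene, chr2.trna1747-GlyGCC, was at 41510 ± 10495 RPM and 33852 ± 7543 RPM (log2 change −0.29 ± 0.38, adjusted p = 0.84). Many tRNA genes share a sequence, as the Gly-GCC genes above do, and the counting splits their reads in a way the sources used here do not give. The 24 tRNA genes that fell, 9 with TMM factors or with the spread of 16 libraries and 3 with each class scaled to its own total, were all under a mean of 200 RPM, led by alanine with 8, serine with 5 and leucine and methionine with 3 each. None was called in all 8 fits that left out 1 library, and some rested on 1 control. chr6.trna176-CysGCA had 61.8 RPM in control replicate 4 and 0.947 to 1.51 RPM in the other controls, beside 0.241 to 1.22 RPM in cKO, and its log2 change went from −4.17 to −0.35 without that library. Control replicate 4 was also the highest by far for lysine and histidine tRNAs, with 3.91 and 3.56% of reads beside at most 0.975 and 0.939% in the other controls. Without it the median log2 change of all tRNA genes was −0.07, beside −0.70 with it. The 4 alanine TGC genes on the X chromosome, such as chrX.trna368-AlaTGC (228, 57.2, 43.5 and 29.4 RPM against 11.3, 14.4, 3.37 and 19.96 RPM), were not called without control replicate 1. The 1 tRNA gene that rose, chrX.trna643-LysCTT, was at 1.10 to 6.72 RPM and 2.49 to 18.6 RPM.

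None of the 5 rRNAs passed with all 8 libraries. 28S was at 31166 ± 29223 RPM in controls and 37036 ± 17964 RPM in cKO, with 74509 RPM in control replicate 1 alone, and 45S at 41705 ± 34438 and 50842 ± 20681 RPM. Without control replicate 1 both were called higher in cKO, with log2 changes of 1.15 (adjusted p = 0.027) and 1.04 (0.041) in place of 0.25 and 0.29. 45S is the precursor that contains 28S, so the 2 entries may share reads and are not separate observations. In controls 45S was at 92517, 27976, 16097 and 30230 RPM and 28S at 74509, 18292, 10767 and 21095 RPM. Any reads counted in both would enter the rRNA share more than once, and the sources used here do not say how they were counted. 18S, 5.8S and 5S had log2 changes of 0.34, −0.39 and −0.71. Of the repeats, 3 families named for long terminal repeats fell, and the one with the largest change was ERVB5_2-LTR_MM:ERV2, an endogenous retroviral repeat. It was at 42.1, 23.6, 9.55 and 10.5 RPM in controls and at 0.731, 0.853, 0.121 and 3.09 RPM in cKO, without overlap (log2 change −4.12 ± 0.75, adjusted p = 3.6e-06).

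The second series of this line held 4 more control and 4 more cKO cauda sperm libraries. On its own it gave 9 lower and 5 higher of 2238 tested features, 0.402% and 0.223%, and all 9 lower ones were miRNAs that had fallen in the first series. These counts depend on the tool, with 27 higher and 188 lower by TMM factors and 142 higher and 274 lower by DESeq2. The higher ones by edgeR included Mir21a, which had 58846 RPM in 1 cKO library and 173 to 1157 RPM in the other 3. Mir34c was at 660, 1433, 463 and 1176 RPM in its controls and at 137, 31.7, 21.3 and 231 RPM in its cKO libraries (log2 change −3.15 ± 0.83, adjusted p = 0.028). The groups did not overlap there either. Mir881, Mir34b and Mir743b had log2 changes of −3.23, −3.05 and −3.5 there and passed as well. Of the 242 features that fell in the first series, 91.7% had a log2 change below 0 in the second, beside 45.4% of all features tested there. The 24 tRNA genes were the exception, with 11 below 0, 45.8%, and a median of 0.18. The piRNA entry 18-qE1-36451.1 had a log2 change of −2.59 ± 0.80 in the second series (adjusted p = 0.063), and the 192 piRNA entries a median of −1.85. Mir10a and Mir10b were far lower in the second series, together 3.18 ± 4.19% of counted reads in controls and 2.77 ± 2.49% in cKO, with log2 changes of −0.04 ± 0.69 and −0.38 ± 0.70. Mir183 and Mir204 had −0.14 and −0.27. The second series carried 28.3 to 72.4% rRNA, and its piRNA counts were 1.49 to 5.31 times, its miRNA counts 1.03 to 2.08 times and its repeat counts 10.9 to 37.3 times those of the separate class table, while the first series had identical miRNA, piRNA, tRNA and rRNA totals in both.

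The difference of the genotype effects between the series was itself tested. It passed for 2 of 2241 features, both more negative in the first series, 0.0892%, and for 0 in the other direction, 0%. They were the piRNA entry 5-qF-4633.1 (difference −3.99 ± 0.97, adjusted p = 0.045) and the repeat RLTR13D1:ERV2 (−4.63 ± 1.03, adjusted p = 0.017). 5-qF-4633.1 was at 71.9 to 329 RPM in the first series' controls and 1730 to 4318 RPM in the second's. RLTR13D1:ERV2 had 2651 RPM in 1 cKO library of the second series and 1.10 to 6.72 RPM in all 8 of the first. At an unadjusted p under 0.05 there were 121 features, and DESeq2 gave 20 higher and 76 lower. TMM factors gave 0, and so did leaving out control replicate 1, 5, 7 or 8 or cKO replicate 2 or 3, where replicates 5 to 8 are those of the second series. For Mir10a and Mir10b the difference was 1.45 and 1.5 on the log2 scale (adjusted p = 0.89 for both), which does not show that the series agree.

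Testis sperm of the same 2 genotypes, 4 libraries each, gave no lower call. There 31 of 2062 features were higher, 1.5%, and 0 were lower, 0%. At an unadjusted p under 0.05 edgeR gave 195 higher and 19 lower, and no other tool was run. The median log2 change over all features was 0.40 there, with 29.1% below 0. Of the 242 features that fell in cauda sperm of the first series, 188 were below 0 in testis sperm, 77.7%, and 54 above. Among the 192 piRNA entries 179 were below 0, 93.2%, with a median of −0.24. Among the 23 miRNAs and the 24 tRNA genes, 4 and 2 were below 0. Mir34c was at 2491 ± 1572 RPM in control and 2982 ± 1362 RPM in cKO testis sperm, and 18-qE1-36451.1 at 16652 ± 2360 and 15085 ± 3492 RPM. The genotype effect in cauda sperm of the first series was lower than that in testis sperm for 312 of 2161 features, 14.4%, and higher for 2, 0.0925%. The median difference over all 2161 was −0.53, and 71.3% were below 0. The 2 features with a higher effect in cauda sperm were Mir183 and Mir204 (difference 3.18, adjusted p = 0.043, and 2.77, adjusted p = 0.049). No higher call remained without cauda sperm control replicate 3 or cKO replicate 1, or without testis sperm control replicate 2 or cKO replicate 1, 2 or 3. Of the 242 features that had fallen in cauda sperm, 201 were among the 312, including 15 of the 23 miRNAs and 173 of the 192 piRNA entries. The 242 and the 312 rest on the same cauda sperm libraries, so this overlap is in part built in and is no separate support. The difference was −3.63 for Mir34c (adjusted p = 0.019), −3.74 for Mir449a (0.0081) and −4.19 for 18-qE1-36451.1 (0.0035). Abundant tRNA genes were also among the 312. chr2.trna1747-GlyGCC was higher in cKO than control testis sperm (log2 change 2.34 ± 0.38, adjusted p = 0.011) where the tRNA share was 0.782 to 1.64% and 1.74 to 10.8% of reads, and it did not pass in cauda sperm.

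**Figure D5:**
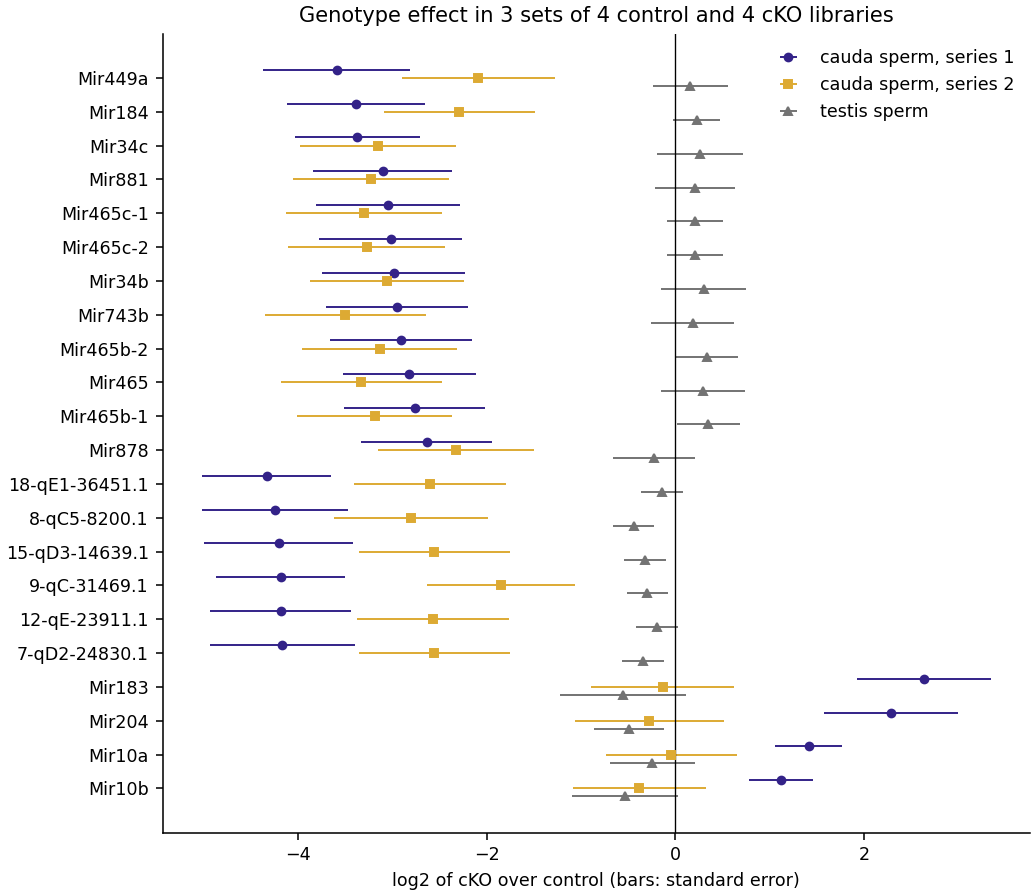
log2 of cKO over control with its standard error for the named miRNAs and piRNA entries that fell or rose in cauda sperm of series 1 (circles), with the same features in cauda sperm of series 2 (squares) and in testis sperm (triangles), 4 control and 4 cKO libraries in each. Mir34c lies at −3.37 in series 1, −3.15 in series 2 and 0.26 in testis sperm, and Mir10a at 1.41, −0.04 and −0.24.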

How the data were processed

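Per the labels' protocols, total RNA was size-selected on a gel to 18 to 40 nt and made into Illumina TruSeq small RNA libraries. Per the submitters' processing notes, Bowtie2 was used with build mm10, and the sources used here do not name its version or settings. The table of sperm small RNA holds raw counts per feature as deposited by the authors. The class table, also counts, and the tissue table, which holds expected counts, were likewise deposited by the authors and served for description. Here counts were scaled to each library's total (RPM) and tested with edgeR 4.0.16 (quasi-likelihood, table total as library size, Benjamini-Hochberg adjustment over all features tested) after keeping features with at least 10 counts in at least 4 libraries. Each log2 value is edgeR's unless another tool is named. Its standard error (SE) was derived here, as the size of the log2 value divided by the square root of the test's F statistic. Class shares were compared with 2-sided exact permutation tests (scipy 1.17.1). The fit was tested on simulated counts, drawn independently with a common spread, changes in both directions and no outlying library. That test therefore does not cover outlying libraries, shared reads or changes mostly in 1 direction, as found here. Alternatives were TMM, DESeq2 1.42.0, no filter, scaling by class, a replicate block, the spread of 16 libraries, and leaving out each library. Libraries of series 2, testis sperm and cauda tissue served for comparison. Totals of 7292048 to 10552363 reads per library set the depth.

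Features were named by a rule. It takes up to 12 called miRNAs in each direction (mean of at least 20 RPM), up to 6 lower and 4 higher piRNA entries (100 RPM), 6 tRNA genes (200 RPM) and 3 repeats (50 RPM) in each direction, by size of change. It adds all rRNAs, the 10 most abundant miRNAs, the 3 most abundant members of each list, the most abundant tRNA gene of each of 6 amino acids, and up to 4 features in each direction from each test of a difference. Others were named after their values were seen. The libraries and lists were chosen with earlier results of these data known.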

Additional observations from a re-analysis of the deposited data

Results flagged for a closer look

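Within groups of 4 libraries, 160 sets of values were looked at for 1 library far from the rest, and 25 stood out. Chance gives about 1 in 20 for independent sets. These sets are not independent, since features such as the Mir465 genes share reads, so the 25 are no measured excess over chance. cKO replicate 4 was far above the other cKO libraries in 17 of the 25. In RPM its miRNA levels were 37.9 for Mir449a, 109 for Mir184, 410 for Mir34c, 85.9 for Mir881, 38.1 for Mir465c-1, 39 for Mir465c-2, 51.9 for Mir34b, 26 for Mir743b, 36.1 for Mir465b-2, 16.5 for Mir465 and 40.8 for Mir465b-1. Its piRNA levels were 207 for 18-qE1-36451.1, 44.3 for 8-qC5-8200.1, 30.9 for 15-qD3-14639.1, 207 for 9-qC-31469.1, 47.8 for 7-qD2-24830.1 and 4.09 for 8-qA4-332.1. For Mir465c-2, control replicate 1 was alone at the top with 297 RPM, the next being 71.9 RPM. For Mir183, control replicate 1 was alone at the top with 163 RPM, the next being 28 RPM. For 28S, control replicate 1 was alone at the top with 74509 RPM, the next being 21095 RPM. For Mir182, cKO replicate 4 was alone at the bottom with 2297 RPM, the next being 3912 RPM. For Mir26a-2, control replicate 3 was alone at the bottom with 229 RPM, the next being 457 RPM. For chr9.trna1035-LysCTT, control replicate 4 was alone at the top with 6024 RPM, the next being 1184 RPM. For chr2.trna1431-HisGTG, control replicate 4 was alone at the top with 4449 RPM, the next being 1170 RPM. For chr13.trna104-ThrAGT, control replicate 4 was alone at the top with 529 RPM, the next being 63.2 RPM. 

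The genotype effect differed between series 1 and series 2 by the test of the difference for RLTR13D1:ERV2 (-4.63) and 5-qF-4633.1 (-3.99), as log2 values. Between cauda sperm of series 1 and testis sperm it differed for these miRNAs, as log2 differences: -3.74 for Mir449a, -3.61 for Mir184, -3.63 for Mir34c, -3.31 for Mir881, -3.25 for Mir465c-1, -3.22 for Mir465c-2, -3.28 for Mir34b, -3.13 for Mir743b, -3.24 for Mir465b-2, -3.11 for Mir465, -3.11 for Mir465b-1, 3.18 for Mir183 and 2.77 for Mir204. Among piRNA entries the differences were -4.19 for 18-qE1-36451.1, -3.80 for 8-qC5-8200.1, -3.88 for 15-qD3-14639.1, -3.88 for 9-qC-31469.1, -3.99 for 12-qE-23911.1, -3.82 for 7-qD2-24830.1, -3.50 for 5-qF-4633.1, -4.71 for 8-qA4-155.1, -4.67 for 8-qA4-332.1 and -4.42 for 8-qA4-155.2. Among tRNA genes they were -2.63 for chr2.trna1747-GlyGCC, -3.02 for chr1.trna710-ValCAC, -2.49 for chr1.trna709-GluCTC, -3.49 for chr2.trna1431-HisGTG, -2.16 for chr11.trna1442-CysGCA and -4.57 for chr13.trna104-ThrAGT.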

How the results depend on the processing

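Against 248 calls in cauda sperm of series 1, scaling by class gave 432, 137 of them shared. TMM gave 249, DESeq2 325, no filter 246 and the spread of 16 libraries 224. Leaving out 1 library gave 201 to 262. Libraries with the same number showed no clear shared deviation (correlations 0.235, 0.0366, −0.102 and 0.0953). Between libraries of different numbers the correlations ran from −0.475 to 0.484, so this check cannot tell whether the numbers pair them. The fit with a replicate block gave 246 (14 higher, 232 lower), and the block on the testis comparison gave 247 in place of 314, which ranged from 211 to 451 without 1 library. For series 2 alone, TMM gave 215 and DESeq2 416 in place of 14. These 2 settings and the miRNA share without Mir10a and Mir10b were chosen after seeing the data. The difference between the series gave 0 with TMM, 96 with DESeq2 and 0 to 3 without 1 library. The miRNA share difference of 13.9 percentage points was 0.191 without Mir10a and Mir10b. It was 11.5 to 16.4 without 1 library, the piRNA difference −3.59 to −1.85, the tRNA difference −16.9 to −7.63, the rRNA difference −0.554 to 4.88 and the repeat difference −0.0116 to 0.124. With 3 against 4 libraries the exact p cannot go below 0.0571. Of the named features none changed sign as a call, 20 results lost their call and 15 gained one. Mir449a had no DESeq2 result. The causes were not tested. The tRNA calls numbered 4 lower and 1 higher with the replicate block. Features under 10 counts in 5 or more of the 8 libraries were not tested.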
